A study of Mus musculus with 3 samples.

Results

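The phagocyte NADPH oxidase genes were followed in total RNA of mouse blood monocytes. The 7 genes were chosen by name as parts of a single enzyme and its close partners: Cybb, Cyba, Ncf1, Ncf4, Rac1, Rac2 and Hvcn1. All 7 were found by symbol among the 55536 genes of the expression tables. The samples were 3 libraries of 1 group, primary blood monocytes of adult C57BL/6J mice (peripheral blood, 5 to 6 weeks of age), with no treatment or genetic change in the labels. The labels number the libraries as biological replicates but tie all of them to 1 donor entry and record no sex. The p-values therefore measure the spread between libraries, which may be partly technical. The sources used here do not give the gate by which the monocytes were isolated.

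The oxidase transfers electrons from NADPH across a membrane to oxygen and so makes superoxide, which monocytes and neutrophils use to kill ingested microbes. Its catalytic core, flavocytochrome b558, sits in the membrane and is made of gp91phox (Cybb) and p22phox (Cyba). In resting cells the p47phox (Ncf1) and p40phox (Ncf4) proteins wait in the cytosol, and a GTP-bound Rac joins them at the membrane when the cell is activated. The proton channel Hv1 (Hvcn1) lets protons follow the electrons and balances the charge. Inherited loss of a core subunit causes chronic granulomatous disease.

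The sequences shown first are the promoter windows found for these genes. Those of Cybb and Ncf1, the 2 genes lowest in library 3 relative to libraries 1 and 2, stand beside that of Cyba. The level of Cyba was nearly even by the main measure. Each runs from 250 bases before to 50 bases after the RefSeq start on the minus strand of GRCm38.p6 and is taken from RefSeq. The windows lie at chrX:9469275-9469574 for Cybb, chr5:134229576-134229875 for Ncf1 and chr8:122432891-122433190 for Cyba. Capitals mark matches to the motifs described in the next paragraph.

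Cybb: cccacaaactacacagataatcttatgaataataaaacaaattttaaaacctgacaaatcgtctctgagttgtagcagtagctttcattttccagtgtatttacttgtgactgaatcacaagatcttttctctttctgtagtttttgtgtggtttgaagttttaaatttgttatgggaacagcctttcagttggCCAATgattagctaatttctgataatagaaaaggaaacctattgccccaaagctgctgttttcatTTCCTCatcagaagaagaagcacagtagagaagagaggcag
Ncf1: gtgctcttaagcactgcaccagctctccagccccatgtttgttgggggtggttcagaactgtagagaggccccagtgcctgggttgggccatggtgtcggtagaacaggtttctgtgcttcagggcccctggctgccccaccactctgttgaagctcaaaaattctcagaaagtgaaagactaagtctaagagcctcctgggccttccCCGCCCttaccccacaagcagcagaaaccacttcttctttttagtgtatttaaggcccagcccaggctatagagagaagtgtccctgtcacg
Cyba: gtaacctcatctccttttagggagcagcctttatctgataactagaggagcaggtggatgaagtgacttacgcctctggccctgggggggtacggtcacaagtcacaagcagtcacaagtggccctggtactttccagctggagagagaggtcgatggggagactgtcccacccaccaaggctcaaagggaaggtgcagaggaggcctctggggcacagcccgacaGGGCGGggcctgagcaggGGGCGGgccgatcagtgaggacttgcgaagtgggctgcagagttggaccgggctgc

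The table of promoter windows matched 3 of the 7 genes. Each motif was searched on both strands, and no match overlapped another. The letters GAGGAA, a form of the site bound by PU.1 and other ETS factors, were found in the Cybb window alone. They lay on the reverse strand, beginning at base 10 after the start. Other forms of that site were not searched. The CCAAT box was also found in the Cybb window, 56 bases before the start. The GC box, searched as GGGCGG, was found in the Cyba window at 24 and at 6 bases before the start, and in the Ncf1 window on the reverse strand 42 bases before it. The TATA box, searched as TATAAA, was in none of the 3 windows. Of 32851 promoter windows of the same length, 28.3% held GAGGAA, 37.4% the CCAAT box, 35.7% the GC box and 13.6% the TATA box. These matches describe exact letters only, and their part in the levels was not tested.

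Levels are given as TPM, a relative transcript abundance that divides reads by transcript length, so that genes can be compared with each other. Libraries 1, 2 and 3 held 27.2, 26.5 and 19.9 M expected counts. Protein-coding genes held 10.9%, 9.84% and 10.7% of the TPM total, so that 1 TPM becomes 9.17, 10.2 and 9.35 TPM where they alone are counted. Markers of monocytes and of other blood cells were present, and 9 of 10 monocyte markers lay above 1 TPM, led by Lyz2 and Ctss, and none was at 0. All 8 NK cell markers also lay above 1 TPM, as did 7 of 9 B cell, 5 of 8 erythroid, 4 of 8 platelet, 4 of 9 eosinophil, basophil and mast cell, 3 of 10 T cell, 2 of 10 neutrophil and 2 of 7 dendritic cell markers. By the same test 43.2% of all genes tested lay above and 6.35% below, with 54.1% of the protein-coding genes above. The T cell, neutrophil and dendritic cell lists thus held smaller shares than genes in general. Of them, 1 T cell and 2 dendritic cell markers lay below 1 TPM. Ly6g, the defining surface marker of mouse neutrophils, the eosinophil peroxidase Epx and the erythroid factor Klf1 had no counts in any library. Other markers of their lists did have counts. The highest were Retnlg with 124, 114 and 0 TPM, Ccr3 with 12.4, 11.6 and 0.17 TPM, and Hba-a2 with 2338, 2289 and 152.3 TPM. Library 3 stood apart from the others, with a chi-square per degree of freedom over gene counts of 136.1 and 154.7 against libraries 1 and 2, which gave 42.4 between them. Its values are given separately wherever they touch a result. In such bulk RNA, fewer cells of a type and less RNA per cell cannot be told apart.

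All 7 oxidase genes lay above 1 TPM, and they spanned a wide range, from Cybb among the most abundant messages to Hvcn1 at a few TPM. The test was edgeR's quasi-likelihood test of each level against 1 TPM with Benjamini-Hochberg adjustment over 17678 genes, at a threshold of 0.05. By the same rule 43.2% of all genes tested lay above 1 TPM and 6.35% below it, and 54.1% of the protein-coding genes tested lay above. With TPM recomputed over protein-coding genes, 10240 of 12984 (78.9%) lay above 1 TPM and 0 (0.0%) below. On the deposited scale the same 12984 genes gave 7018 above and 781 below. The median of the 7 mean levels was 21.3 TPM, beside 1.18 TPM for all genes tested and 2.09 TPM for the protein-coding genes among them.

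Cybb (ENSMUSG00000015340.10, mm10 chrX:9435252-9487771, minus strand), the catalytic subunit, stood at 141.6, 127.3 and 83.4 TPM in libraries 1, 2 and 3. Libraries 1 and 2 lay close together and library 3 was the low one. The mean was 117.5 TPM ± 30.3 (SD, n = 3), with an adjusted p of 1.38e-14 by edgeR. Cybb ranked 114 among 14129 protein-coding genes with reads. Its 69071, 65732 and 27197 counts leave a counting error of 0.381%, 0.390% and 0.606%, far less than the difference between libraries.

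Cyba (ENSMUSG00000006519.11, chr8:122424776-122432930, minus strand), which stabilises the catalytic subunit and carries the docking site for p47phox, had 35.7, 36.5 and 37.8 TPM. It was the most even of the 7 genes by these gene levels, with a mean of 36.6 TPM ± 1.06 (SD, n = 3, edgeR adjusted p = 5.12e-12). The counting error of a single library, 2.02% to 2.52%, was nearly as large as this spread of 2.89%. The evenness depended on the table. In a second M21 transcript table, derived by the authors directly from the reads, Cyba summed to 101.6, 80.0 and 94.1 TPM. Cyba lies wholly inside the span of Gm20388 on the opposite strand, listed at 1.05, 1.51 and 6.58 TPM. Parts of Ncf1, Rac1 and Hvcn1 also lie opposite other genes, Gtf2ird2, Daglb with Gm42502, and Tctn1, each at 4.15 TPM or less. Without the strand setting of the counting, which the sources used here do not give, such reads cannot be told apart.

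Ncf1 (ENSMUSG00000015950.13, chr5:134220053-134229625, minus strand) encodes p47phox, the organiser that is phosphorylated on activation and brings the cytosolic subunits to the membrane. It had 18.1, 19.4 and 10.4 TPM, so that library 3 was again the low one. The mean was 16.0 TPM ± 4.82 (SD, n = 3, edgeR adjusted p = 4.8e-10). Ncf4 (ENSMUSG00000071715.12, chr15:78244801-78262580, plus strand) encodes p40phox, which binds a lipid of the phagosome membrane and sustains the activity there. Its gene level was even, at 21.6, 20.9 and 22.3 TPM, with a mean of 21.6 TPM ± 0.711 (SD, n = 3, edgeR adjusted p = 5.56e-11). In the second M21 transcript table it was not, at 36.7, 32.2 and 50.7 TPM.

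Rac1 (ENSMUSG00000001847.14, chr5:143503634-143528036, minus strand), a GTPase present in most cell types that also shapes the actin cytoskeleton, had 20.8, 23.3 and 19.9 TPM, a mean of 21.3 TPM ± 1.76 (SD, n = 3, edgeR adjusted p = 3.41e-11). Rac2 (ENSMUSG00000033220.7, chr15:78559167-78572783, minus strand), its relative restricted to blood cells, had 13.1, 20.2 and 20.6 TPM, a mean of 18.0 TPM ± 4.19 (SD, n = 3, edgeR adjusted p = 1.78e-10). Here library 1, not library 3, was the low one. No transcript of another gene matched Rac1 at 95% identity or more over 100 bases, so Rac1 and Rac2 are not near-identical by this measure. Such a match was found for the longest Rac2 transcript, with 122 bases of a Sirt5 transcript, and for a noncoding Cyba transcript, with 5 other genes.

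Hvcn1 (ENSMUSG00000064267.13, chr5:122206804-122242297, plus strand), the proton channel, was the lowest of the 7 at 2.70, 3.69 and 3.12 TPM, a mean of 3.17 TPM ± 0.497 (SD, n = 3). It ranked 5273 among the protein-coding genes with reads. Its 793, 1180 and 556 counts gave an adjusted p of 1.53e-05 with edgeR, but DESeq2, which placed 32.1% of all genes tested above 1 TPM, gave 0.0502, which ends the call. Hvcn1 is also expressed by B cells, and the summed level of the 9 B cell markers was 96.9, 100.2 and 87.9 TPM, with none at 0. Their part in the Hvcn1 level was not tested.

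**Figure D1:**
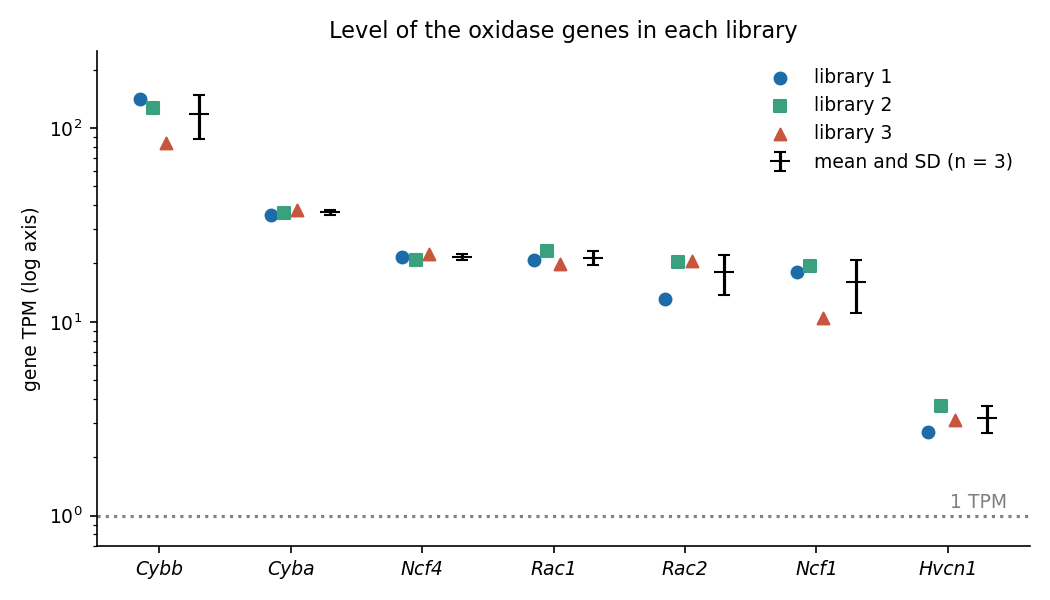
TPM of each oxidase gene (log axis) in libraries 1, 2 and 3, with the mean and SD of the 3 libraries in black and a dotted line at 1 TPM. Cybb lies on top at 83.4 to 141.6 TPM, Hvcn1 at the bottom at 2.70 to 3.69 TPM, and Ncf4, Rac1, Rac2 and Ncf1 overlap between 10.4 and 23.3 TPM.

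Between the subunits, the levels formed 4 tiers: Cybb, then Cyba, then Ncf4, Rac1, Rac2 and Ncf1 together, then Hvcn1. Of the 21 pairs of genes, 18 kept the same order in all 3 libraries, and in 15 the mean log2 ratio exceeded 2 SD. The 6 pairs within the third tier did not differ beyond that spread by these gene levels. In gene tables made on the older GENCODE M4 annotation, Ncf4 lay above Rac1 in every library. The levels there were 22.7, 21.5 and 22.8 TPM for Ncf4 and 13.6, 14.1 and 16.3 TPM for Rac1. The tiers are a description, since an exact sign-flip test over 3 libraries cannot go below p = 0.25.

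Within the membrane core, Cybb exceeded its partner Cyba in every library, 3.96-fold, 3.48-fold and 2.20-fold in libraries 1, 2 and 3. The mean log2 ratio was 1.64 ± 0.44 (SD, n = 3; exact two-sided sign-flip p = 0.25, adjusted over 4 ratios 0.333). The ratio was smallest in library 3, where Cybb was low and Cyba was not. Without library 3 it was 1.89.

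Among the cytosolic subunits, Ncf1 lay below Ncf4 in all 3 libraries, with log2 ratios of -0.26, -0.11 and -1.09 and a mean of -0.48 ± 0.53 (SD, n = 3; exact sign-flip p = 0.25, adjusted 0.333). The gap rested on library 3: without it the mean was -0.18. The direction turned in CPM, which does not divide by length (1.06), and over complete coding transcripts (0.33). For the GTPases, log2 ratios of Rac2 to Rac1 were -0.66, -0.20 and 0.05, a mean of -0.27 ± 0.36 (SD, n = 3; exact sign-flip p = 0.5, adjusted 0.5). Rac1 was ahead in libraries 1 and 2 and level with Rac2 in library 3, a difference smaller than the spread between libraries.

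The steadiest of the 4 ratios was that of the membrane pair to the cytosolic pair, taken as the mean log2 level of Cybb and Cyba minus that of Ncf1 and Ncf4. It was 1.84, 1.76 and 1.87, a mean of 1.82 ± 0.06 (SD, n = 3; exact sign-flip p = 0.25, adjusted 0.333), or 3.54-fold. This small spread belongs to the M21 gene TPM. The libraries lay further apart over complete coding transcripts and in the second M21 transcript table. Of the 21 pairs of single genes, the smallest spread was that of Cyba to Ncf4, 0.76 ± 0.04 (SD, n = 3) on the log2 scale, followed by Cyba to Rac1, 0.78 ± 0.14, Cybb to Ncf1, 2.89 ± 0.15, and Rac1 to Hvcn1, 2.72 ± 0.16 (SD, n = 3). Most of these depended on which transcripts were summed. Over those with a complete coding sequence, a measure chosen after seeing the data, the ratio of Cyba to Ncf4 was 1.66. That of Cyba to Rac1 was then 1.55 and that of Rac1 to Hvcn1 1.93, while that of Cybb to Ncf1 was 2.95. Cybb and Ncf1 were both lowest in library 3 by either measure.

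Summed over the 7 genes, the oxidase held 253.6, 251.2 and 197.4 TPM, which was 0.232%, 0.255% and 0.184% of the protein-coding TPM. Cybb alone made up 55.8%, 50.7% and 42.2% of these sums. The membrane pair summed to 177.3, 163.8 and 121.2 TPM, Ncf1 and Ncf4 to 39.7, 40.2 and 32.7 TPM, and the GTPases to 34.0, 43.5 and 40.4 TPM. The membrane and cytosolic sums were lowest in library 3, while that of the GTPases lay between its values in libraries 1 and 2. The place of the GTPases depended on the transcripts summed. Over complete coding transcripts Rac1 had 11.2, 10.4 and 14.0 TPM and Rac2 7.90, 7.64 and 16.4 TPM, both highest in library 3. Both were also highest there in the gene tables made on the older GENCODE M4 annotation.

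Library 3 was set against the mean of libraries 1 and 2 on the log2 scale, relative to the median protein-coding gene, which was itself shifted by 0.30. Ncf1 stood at -1.13 and passed the 2-fold line. Cybb, at -0.98, lay just inside it. Rac1 stood at -0.44, Hvcn1 at -0.31, Cyba and Ncf4 both at -0.23, and Rac2 at 0.04. Several of these depended on the tables. In those made on GENCODE M4, Rac2 stood at 0.73 and Rac1 at -0.07. In the second M21 transcript table, which the authors derived directly from the reads, Ncf4 stood at 0.05, Hvcn1 at -0.82, Cyba at -0.45 and Rac2 at 0.65. Over complete coding transcripts, Rac1 stood at 0.09, Ncf4 at -0.59 and Rac2 at 0.79. With 1 of 7 genes lower past 2-fold and 0 higher, the background was 4.43% lower and 5.66% higher of 8298 protein-coding genes. Without the centring Cybb stood at -0.69 and Ncf1 at -0.83, Cyba and Ncf4 turned to 0.07 each, and 0 of the 7 passed the line, as against library 1 alone. The comparison is between libraries, not conditions, and has no test.

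Several blood cell markers moved with this difference. Counts past 2-fold are among markers with a mean TPM of 1 or more. The 10 monocyte markers summed to 2244, 1854 and 1227 TPM, and 3 of 10 were lower past 2-fold in library 3, with a list median of -0.37. The neutrophil markers summed to 142.4, 128.0 and 9.67 TPM, with 4 of 5 lower. Retnlg, which made up most of the first 2 sums, was at 0 in library 3, and Csf3r had 5.99, 6.64 and 8.09 TPM. The eosinophil, basophil and mast cell markers summed to 30.7, 32.5 and 5.10 TPM, with 7 of 7 lower past 2-fold, and the erythroid markers to 3535, 3328 and 262.7 TPM, with 6 of 6 lower. The NK cell markers went the other way, from 675.3 and 568.5 to 1623 TPM, with 7 of 8 higher past 2-fold, as did the platelet markers, from 15.3 and 11.5 to 99.6 TPM, with 5 of 6 higher. The T cell markers summed to 11.1, 11.9 and 16.2 TPM and the dendritic cell markers to 8.06, 6.43 and 3.61 TPM. Their part in the levels of Cybb and Ncf1 was not tested.

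**Figure D2:**
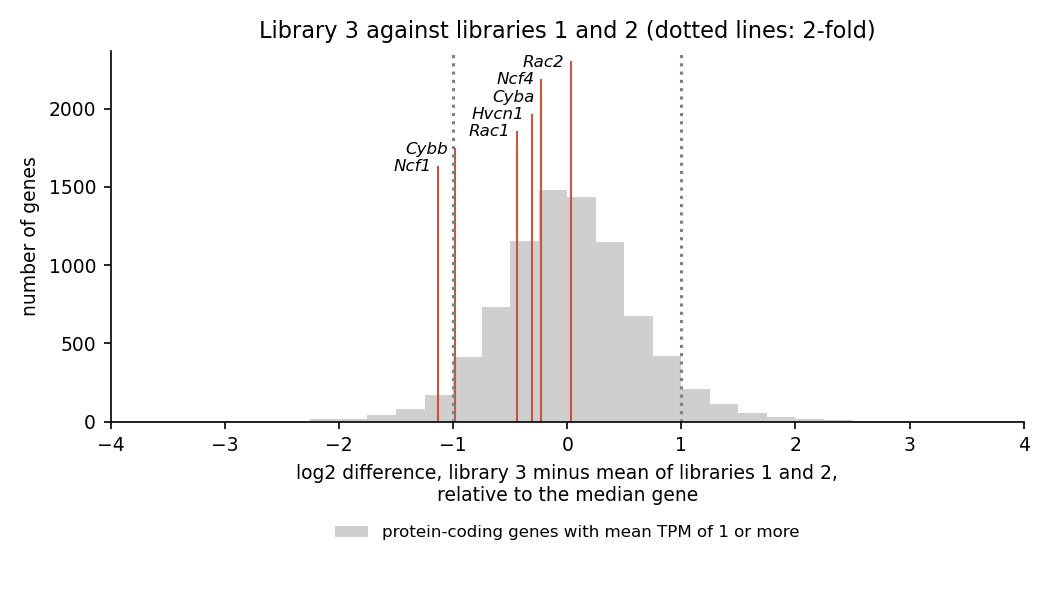
Log2 difference between library 3 and the mean of libraries 1 and 2, relative to the median gene, for 8298 protein-coding genes with a mean TPM of 1 or more (grey, number of genes per bin) and for the 7 oxidase genes (red lines, whose heights only separate the names). Ncf1 at -1.13 and Cybb at -0.98 lie at the lower 2-fold line, and the other 5 lie between -0.44 and 0.04.

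The spread of the oxidase genes lay within that of other genes. The SD of log2 level over the libraries ran from 0.04 for Cyba to 0.48 for Ncf1, and 4 of 7 genes lay below the protein-coding median of 0.35 (quartiles 0.21 and 0.53, 8298 genes).

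The gene levels were next divided among annotated transcripts, since a gene's TPM can come from fragments that cannot make the protein. GENCODE M21 lists 33 transcripts for the 7 genes, and a leading transcript held at least 50% of TPM on average in each gene in the first M21 transcript table (in 5 of 7 genes in the second). Transcripts with a complete coding sequence held 92.8% ± 1.27 of the TPM of Cybb, 94.7% ± 1.56 of Cyba, 88.9% ± 4.24 of Ncf1 and 96.3% ± 6.50 of Hvcn1 (SD, n = 3). The shares were lower for Ncf4 (50.8% ± 7.84), Rac1 (56.3% ± 13.1) and Rac2 (59.2%, from 37.8% to 79.8%). The rest of Ncf4 was retained introns, and the rest of Rac1 and Rac2 was short or incomplete forms.

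**Figure D3:**
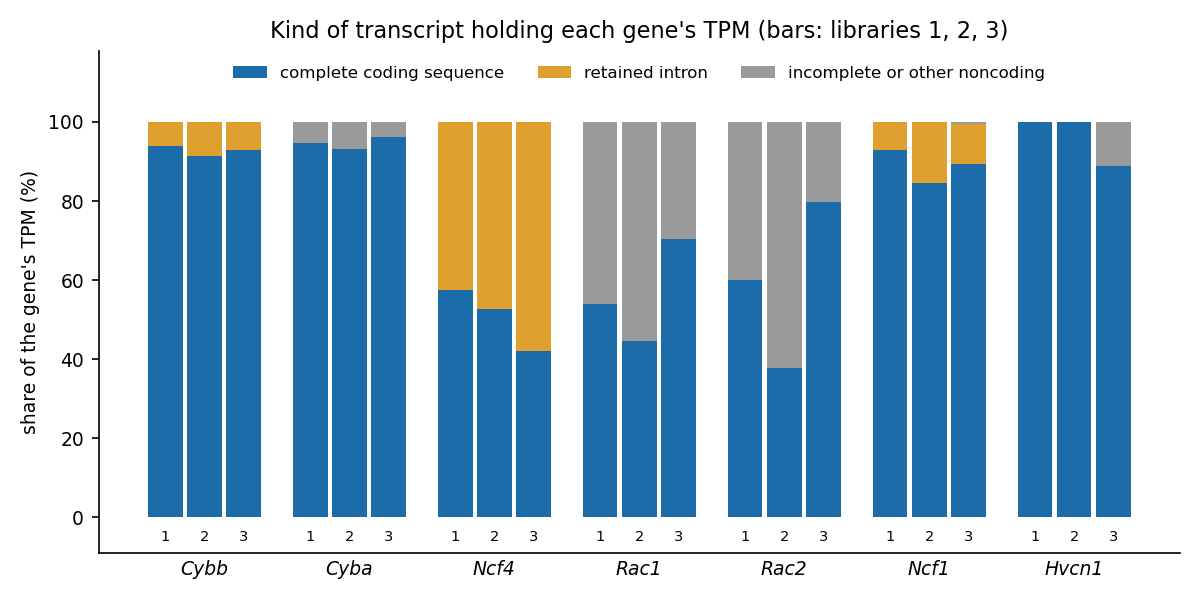
Share of each gene's TPM (%) held by transcripts with a complete coding sequence, by retained introns, and by incomplete or other noncoding forms, with a bar for each of libraries 1, 2 and 3. The complete share of Rac2 was 60.1%, 37.8% and 79.8%, while that of Cybb stayed between 91.5% and 94.0%.

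For Rac2 the division changed which library was low. Rac2-201, the full-length form of 3038 bases, had 7.90, 7.64 and 16.4 TPM, so that library 3 was the high one and libraries 1 and 2 were level. Rac2-203, an incomplete form of 254 bases with 11 bases on no other transcript, had 1.56, 12.6 and 3.93 TPM. In library 2 it held 62.2% of the gene's TPM on 5.23% of its counts, 147 of 2815. Rac2-202, a form of 459 bases annotated for nonsense-mediated decay, had 3.68, 0 and 0.23 TPM. The second M21 transcript table gave other patterns, with 13.9, 21.9 and 36.4 TPM for Rac2-203 and 9.66, 7.87 and 23.2 TPM for Rac2-202. The M4 gene tables, which were made on an older annotation, gave Rac2 8.19, 8.11 and 16.8 TPM, the pattern of Rac2-201.

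Of the complete coding forms of Rac1, Rac1-202 had 10.4, 8.56 and 12.6 TPM and Rac1-201 had 0.84, 1.81 and 1.34 TPM. They differ by a coding exon of 57 bases, exon 4 of Rac1-202 at chr5:143509597-143509653 on the minus strand, the exon that defines the splice form Rac1b. It is shown here because it separates the 2 coding forms.

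Rac1 exon 4: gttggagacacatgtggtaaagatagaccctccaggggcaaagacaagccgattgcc

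The 57 bases of this exon are all that Rac1-202 holds on no other transcript, while Rac1-201 holds 1891 bases of its own. Use of the exon and of those other bases cannot be told apart in transcript totals, so the order of the forms is no measure of exon inclusion. Rac1-204, a form of 585 bases with no coding sequence, had 9.59, 12.9 and 5.87 TPM. It held 46.1%, 55.4% and 29.6% of the gene's TPM on 13.3%, 17.5% and 6.75% of its counts. In library 2 it was ahead of Rac1-202, and in the second M21 transcript table it held a mean of 50.03% against 39.2%.

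Cyba was led by Cyba-201 with 30.9, 26.4 and 34.1 TPM. Cyba-202, which lacks exon 4, an 84-base coding exon at chr8:122426936-122427019, had 2.91, 7.59 and 2.26 TPM, and the noncoding Cyba-203 1.88, 2.50 and 1.41 TPM. The exon that separates the forms reads as follows on the minus strand of GRCm38.

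Cyba exon 4: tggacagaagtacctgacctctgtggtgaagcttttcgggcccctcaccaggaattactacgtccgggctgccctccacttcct

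Its length is a multiple of 3, so leaving it out keeps the reading frame. The share of Cyba-202 was 8.15%, 20.8% and 5.98%, and library 2 was the high one. Of its 638 bases, 0 lie on no other transcript, so this share is uncertain.

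Ncf1 was carried by Ncf1-202 with 14.9, 14.3 and 7.65 TPM, which followed the gene's own pattern, and by Ncf1-205 with 1.04, 1.85 and 1.29 TPM. Of the 2721 bases of Ncf1-202, 0 lie on no other transcript, so its split from the other forms is uncertain. The retained intron Ncf1-203 had 0.43, 2.28 and 0.97 TPM. Ncf4 had a single complete form, Ncf4-201, with 12.4, 11.0 and 9.40 TPM, so that its complete coding level was lowest in library 3 although the gene level was even. The retained intron Ncf4-204, of 336 bases, held 30.1%, 38.9% and 33.6% of the gene's TPM on 5.41%, 8.38% and 7.29% of its counts. Ncf4-205 held 10.4%, 3.21% and 2.74%, most of it in library 1, and Ncf4-206 held 15.7% in library 3 and was listed at 0 in the others. The second M21 transcript table listed Ncf4-206 in every library, at 4.37, 4.78 and 8.45 TPM.

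Hvcn1-201 had 2.70, 2.45 and 2.76 TPM and was steady, while Hvcn1-202 was listed at 0, 1.24 and 0. Both forms have a coding length of 807 bases. The higher Hvcn1 gene level of library 2 thus lay in Hvcn1-202 in the first M21 transcript table. The second listed Hvcn1-202 in every library, at 1.02, 1.80 and 0.975 TPM. Only 89 of its 2805 bases lie on no other transcript, so the split between the 2 forms is uncertain. Cybb was nearly all Cybb-201, with 133.2, 116.5 and 77.5 TPM.

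**Figure D4:**
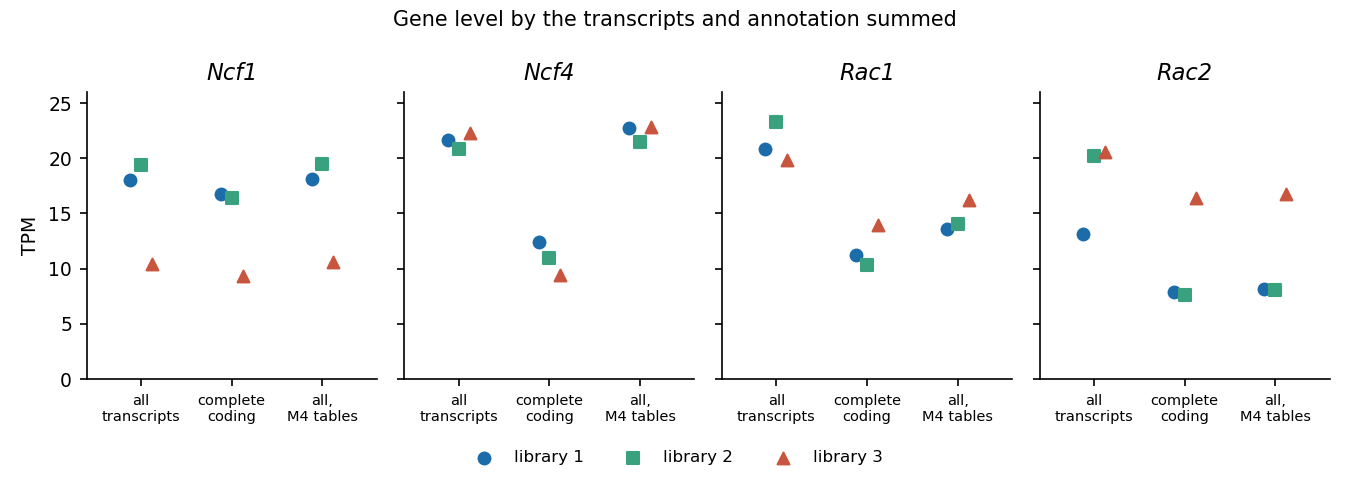
TPM of Ncf1, Ncf4, Rac1 and Rac2 in libraries 1, 2 and 3 by what was summed: all M21 transcripts, M21 transcripts with a complete coding sequence (chosen after seeing the data), and the M4 gene tables. Rac2 in library 3 lies above libraries 1 and 2 by complete coding transcripts (16.4 against 7.90 and 7.64) and by M4, but level with library 2 by all M21 transcripts.

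Summed over complete coding transcripts alone, a measure chosen after seeing the data, the levels were 133.2, 116.5 and 77.5 TPM for Cybb, 33.8, 34.0 and 36.4 for Cyba, 16.8, 16.4 and 9.32 for Ncf1, 12.4, 11.0 and 9.40 for Ncf4, 11.2, 10.4 and 14.0 for Rac1, 7.90, 7.64 and 16.4 for Rac2, and 2.70, 3.69 and 2.76 for Hvcn1. The order of Ncf1 and Ncf4 turned, with a mean log2 ratio of 0.33. Ncf1 then lay above Ncf4 in libraries 1 and 2 and level with it in library 3. All 15 pairs that bridge the tiers kept their order in the 3 libraries, Cybb over Cyba over the middle 4 over Hvcn1.

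Among 53 other genes of the pathway in 4 lists, 45 had enough counts to test, 38 lay above 1 TPM and 0 below by edgeR, beside 43.2% above and 6.35% below for all genes tested and 54.1% above for the protein-coding genes. The other 7 lay on neither side, of which 0 lay below at an unadjusted p under 0.05. The test could hardly place genes of few counts below: Sod3, at a mean of 0.01 TPM, had an unadjusted edgeR p of 0.0954. The 8 genes left untested, 7 of them at 0 counts, fell under the count limit. The 0 below therefore does not tell how many of these genes lay under 1 TPM. DESeq2 placed 1 gene below 1 TPM (1.28% of all genes tested) and limma 3 (35.7% of all genes tested).

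Transcripts for proteins that control the supply of gp91phox were present. Nrros, an endoplasmic reticulum protein that controls the turnover of gp91phox, had 15.8, 17.1 and 16.3 TPM. Cybc1, the chaperone EROS that gp91phox needs to be stable, had 7.95, 6.74 and 9.72 TPM.

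The other oxidases of the family were low or without counts, and 2 of the 11 genes in their list lay above 1 TPM, Nrros and Cybc1. Only 4 of the 11 had enough counts to test, and 43.2% of all genes tested lay above. Nox3, Nox4, Duox1, Duox2, Duoxa1 and Duoxa2 had no counts. Nox1, the colon oxidase, had 0, 0.08 and 0.03 TPM, its organiser Noxo1 had 0.05, 0.28 and 0.22 TPM, and its activator Noxa1 had 0, 0 and 0.08 TPM on 8 counts. For the 6 genes at 0 and for Mpo, the level that 0 counts still allow, taken as 3 counts, was 0.00484 to 0.0355 TPM per library, for counting error only. Of the catalytic subunits listed, Cybb alone passed 1 TPM in the test.

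Genes of the small GTPases around Rac and their regulators lay above 1 TPM in 11 of 12 cases, with a list median of 12.4 TPM. The highest were Arhgdib, which holds Rac in the cytosol in blood cells, at 107.6 TPM ± 17.1, Rap1a, a GTPase found with the flavocytochrome, at 66.1 TPM ± 21.3, and Dock2, an exchange factor for Rac in leukocytes, at 54.3 TPM ± 21.4 (SD, n = 3). Rac3, the third Rac, was lowest at 1.02, 0 and 0.73 TPM and lay on neither side of 1 TPM. Dock2 was highest in library 3, with 45.3, 38.9 and 78.8 TPM, and Rap1a lowest there, with 86.0, 68.5 and 43.7 TPM. The count of this list fell to 9 of 12 with DESeq2 (32.1% of all genes tested). At a level of 2 TPM it was also 9 of 12 (32.5% of all genes tested).

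Kinases and lipid enzymes that drive assembly lay above 1 TPM in 12 of 14 cases, with a list median of 5.99 TPM. The protein kinase C forms Prkcd and Prkcb, which phosphorylate p47phox, had 66.2 TPM ± 8.68 and 25.5 TPM ± 6.13, and Mapk14, the p38 kinase, 18.0 TPM ± 1.64 (SD, n = 3). Prkca was lowest, with 1.06, 0.45 and 2.15 TPM. Without library 3 the count was 13 of 14 (44.5% of all genes then tested), and with DESeq2 9 of 14 (32.1% of all genes tested). At a level of 2 TPM it was also 9 of 14 (32.5%).

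Of the genes that handle superoxide and peroxide, 13 of 16 (15 of them tested) lay above 1 TPM, with a list median of 14.4 TPM. Gpx1, which reduces hydrogen peroxide with glutathione, had 202.7, 155.5 and 124.7 TPM, Prdx5, a peroxiredoxin, 98.3, 75.3 and 53.6 TPM, and Sod1, the cytosolic superoxide dismutase, 63.4, 54.7 and 46.6 TPM. All of these were lowest in library 3. Mpo, the myeloperoxidase of neutrophil and monocyte granules, had no counts, and Sod3, the extracellular dismutase, was lowest of the rest at 0, 0.01 and 0.02 TPM.

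**Figure D5:**
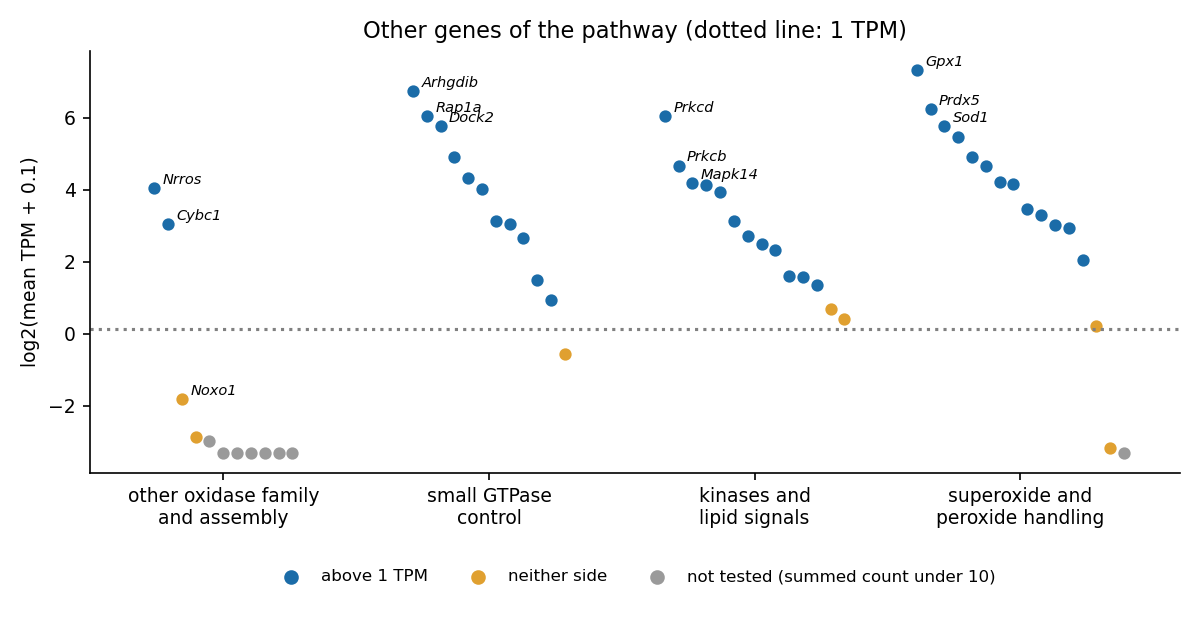
Mean level of each of 53 other pathway genes in 4 lists as log2(mean TPM + 0.1), ordered within a list and coloured by the edgeR test against 1 TPM (dotted line). The 3 highest of each list are named, and genes with no counts sit at the bottom in grey.

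The protein-coding genes whose levels over the 3 libraries were most like each oxidase gene were found by the root mean square difference of log2(TPM + 0.1), over 13991 genes outside the lists. For Cybb they were Arpc3 (138.6, 127.9 and 97.4 TPM; difference 0.131), Gm2000 and Rps20. For Ncf1 they were Iscu (18.9, 20.9 and 11.3 TPM; difference 0.101), Smpdl3b and Acot9. The nearest to Cyba were Tmbim6 (difference 0.0226) and Zfp36l2, and to Ncf4 Themis2 (0.0485), Tmed5 and Sp3. Rac1 lay nearest to Fabp4 (0.0817), Psma1 and Mapkapk2, Rac2 to Kmt2e (0.124), Klc1 and Rabgap1l, and Hvcn1 to Irf4 (0.0551), Pex2 and Dnase2a. Between 19 genes for Cybb and Rac2 and 163 for Ncf4 and Hvcn1 lay within 0.25, so a close match over 3 libraries is common.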

How the data were processed

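Per the labels, 100 ng of RNA depleted of ribosomal RNA was made into strand-keeping ScriptSeq libraries from each of 3 monocyte samples, with fragment ranges of 200 to 594, 200 to 491 and 200 to 1000 bp. The authors quantified each library on mm10 with GENCODE M21 and M4. Their gene and transcript tables, derived from transcriptome alignments, give an expected count and TPM as deposited by the authors, with an effective length. A second M21 transcript table, derived directly from the reads per the labels, holds estimated counts and TPM deposited by the authors. The sources used here name neither the programs nor the strand setting.

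The genes and lists were chosen with earlier results of these data known. Rows that name no gene, 0.000571%, 9.04e-05% and 7.53e-05% of the counts, were left out of the tests. Expected counts were rounded and fitted with edgeR 4.0.16 (intercept only, summed count of 10 or more); the offset, on the log scale, was the counts equal to 1 TPM (112, 121 and 76.0 counts for 1000 bases), so the two-sided quasi-likelihood F test is against 1 TPM. The test was checked on simulated data. Ratios used log2(TPM + 0.1). DESeq2 1.42.0, limma 3.58.1, TMM factors, other levels, annotations, pseudocounts and left-out libraries were tried as alternatives. The libraries differed from each other by more than sampling noise (chi-square per degree of freedom of 42.4 to 154.7). Near-identical transcripts of other genes were searched with BLAST+ 2.17.0 (95% identity, 100 bases).

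The text names all 7 genes, every gene of the list of other oxidase genes, the 3 highest and the lowest gene of each other pathway list, any gene of those lists below 1 TPM, the 2 highest markers of a list and those at 0, the 3 nearest genes by level, and transcripts with 5% or more of a gene's TPM. Some genes that this rule would name are not reported here. The sums over complete coding transcripts and the pairs of genes with a steady ratio were singled out after their values were seen.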

Additional observations from a re-analysis of the deposited data

How the results depend on the processing

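The count of 7 oxidase genes above 1 TPM was the same under TMM factors, limma, no count filter, TPM over protein-coding genes, the M4 tables, levels of 0.5 and 2 TPM and each left-out library; DESeq2 gave 6, losing Hvcn1 (fitted log2 level 1.66, adjusted p = 0.0502). Of the pathway list genes, 38 lay above 1 TPM by edgeR. With DESeq2 33 did, 33 lay above 2 TPM, 41 above 0.5 TPM, and 42 above 1 TPM with TPM over protein-coding genes. The shares of all genes tested in those settings were 32.1%, 32.5%, 52.5% and 78.9%. No pathway list gene lay below 1 TPM by edgeR, 1 did with DESeq2 and 3 with limma. The count of all genes below 1 TPM, 1123, was 227 with DESeq2, 6304 with limma, 251 without library 1, 381 without library 2, 176 at a level of 0.5 TPM and 3396 at 2 TPM. Among the 12984 protein-coding genes tested it was 781 on the deposited scale and 0 with TPM over protein-coding genes.

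The log2 ratio of Cybb to Cyba, 1.64, was 1.15 in the second M21 transcript table and 4.60 in CPM, which does not divide by length, and ran from 1.47 to 1.89 with a library left out. That of Ncf1 to Ncf4, -0.48, turned to 1.06 in CPM and 0.33 over complete coding transcripts (chosen after seeing the data), and ran from -0.67 to -0.18 with a library left out. That of Rac2 to Rac1, -0.27, turned to 0.14 in the second table and ran from -0.43 to -0.08. The membrane to cytosolic ratio, 1.82, was 1.74 in the M4 tables, 2.02 in the second table, 2.00 in CPM and 2.31 over complete coding transcripts, and ran from 1.80 to 1.86. The number of oxidase genes lower past 2-fold in library 3, 1, was 0 with no centring, 2 in the second table and 0 against library 1 alone. Except for length in CPM and the centring itself, the cause was not tested. The same transcript led in both M21 transcript tables in 5 of 7 genes. No paired analysis was possible because the series holds 1 group. Depth limits Hvcn1 most, with a counting error of 4.24% in library 3, still below the spread of 15.7% between libraries.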
